A study of Mus musculus with 12 samples.

Results

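The testis-specific serine kinases and the actin-like genes Actl7a and Actl7b were followed in RNA recovered with MIWI, the mouse PIWI protein of late meiotic and early haploid male germ cells, and in the RNA from which it was recovered. The set holds 7 of the 20345 listed genes, taken by Ensembl identifier: Tssk1 (ENSMUSG00000041566), Tssk2 (ENSMUSG00000045521), Tssk3 (ENSMUSG00000000411), Tssk4 (ENSMUSG00000007591), Tssk6 (ENSMUSG00000047654), Actl7a (ENSMUSG00000070979) and Actl7b (ENSMUSG00000070980). The samples are MIWI immunoprecipitates (IP) and inputs of late spermatocytes from Miwi ADH/-, Miwi -/- and Miwi +/- mice, depleted of ribosomal RNA. The ADH allele carries a mutated catalytic site, so the only MIWI protein of Miwi ADH/- cells lacks the activity that cuts target RNA; all genotypes carry at least 1 Miwi null allele, and no Miwi +/+ cells are among the samples used here. Since Miwi -/- cells make no MIWI, their IP shows what the procedure recovers without it. The RNA came from testes or sorted cells per the labels, which do not say which samples were sorted; animal ages, how the alleles were made and any pooling of animals are not stated either.

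TSSK proteins are protein kinases made in the testis, mainly in spermatids, where they act in the reshaping of the haploid cell into a sperm. TSSK1 and TSSK2 form a complex with their substrate TSKS, and male mice without both, without TSSK3 or without TSSK6 are infertile. ACTL7A and ACTL7B are actin-related proteins of spermatids, and mouse ACTL7A is needed to hold the acrosome to the nucleus. Most of these genes lack introns, and some of them form neighbouring pairs on their chromosomes, Tssk1 with Tssk2 and Actl7a with Actl7b.

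The labels describe 2 samples for each of 6 combinations of genotype and IP or input, while the values analysed are 1 column for each, in RPKM (reads per kilobase of gene and per 1000000 reads). There is thus no replicate error and no p-value for any comparison. The RPKM values of each gene are whole multiples of the value of 1 read, which gave the reads behind each level. All intervals below are exact 95% intervals from these reads. They cover counting error of these libraries only, and copies made by PCR are not independent molecules. In units of 1000000 reads, column totals were 10.6, 4.17 and 5.88 for the Miwi ADH/-, -/- and +/- IPs and 5.48, 7.09 and 7.48 for the inputs in that order. The listed genes took 35.1%, 18.3% and 29.3% of the IP totals and 47.9%, 53.7% and 52.4% of the input totals. Genes were counted as higher or lower at a 2-fold difference or more of RPKM + 1, and each count is set beside the same share of the 12246 genes that reached 1 RPKM in 2 or more columns (the kept genes). Of the 7 members, 6 were kept; Tssk6 reached 1 RPKM in 1 column only and is described with its few reads. Since the table gives no gene names, the level of Miwi itself, germ cell stage markers and somatic markers are not reported here, so neither the genotype nor the cell type labels were checked against the data. Their part in the differences below was not tested.

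The names of the members were set against gene lengths. The step of 1 read is inversely proportional to the length used by the authors, so step times RefSeq length should be 1 constant. For the 5 members without introns the products lay within 0.138% of their median. RefSeq gives spans of 1451 bases for Tssk1, 1388 for Tssk2, 1335 for Tssk6, 1504 for Actl7a and 1421 for Actl7b. The same constant gave 1282 bases for Tssk3 and 1484 for Tssk4, both shorter than their RefSeq spans of 2723 and 8889 bases with introns. Reads shared between related members, such as Tssk1 and Tssk2, could not be told apart from reads of the gene itself, because the sources used here do not say how reads with several matches were counted.

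Promoter windows of the neighbouring pairs are shown because their members differed from each other in the inputs described below. The sequences are those of RefSeq for GRCm38.p6, with 250 bases before the transcription start and 50 from it on, 5′ to 3′ on the strand of the gene. The reads behind the levels were mapped to mm9 per the submitters' processing notes. The windows lie at chr16:17893953-17894252 (plus strand) for Tssk1, chr16:17898387-17898686 (plus) for Tssk2, chr4:56743172-56743471 (plus) for Actl7a and chr4:56741376-56741675 (minus) for Actl7b. Capitals mark matches to TGACNTCA or its reverse complement.
Tssk1: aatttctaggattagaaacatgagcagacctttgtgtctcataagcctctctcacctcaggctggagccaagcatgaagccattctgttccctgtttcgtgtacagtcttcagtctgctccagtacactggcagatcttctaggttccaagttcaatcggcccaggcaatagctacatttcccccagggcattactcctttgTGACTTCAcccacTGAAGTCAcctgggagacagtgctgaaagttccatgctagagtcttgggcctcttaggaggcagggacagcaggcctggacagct
Tssk2: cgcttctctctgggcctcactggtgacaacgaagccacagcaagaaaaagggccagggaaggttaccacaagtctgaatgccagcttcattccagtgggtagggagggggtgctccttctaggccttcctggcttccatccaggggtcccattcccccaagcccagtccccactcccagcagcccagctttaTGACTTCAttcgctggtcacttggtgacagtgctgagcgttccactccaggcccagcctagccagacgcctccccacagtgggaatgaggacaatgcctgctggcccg
Actl7a: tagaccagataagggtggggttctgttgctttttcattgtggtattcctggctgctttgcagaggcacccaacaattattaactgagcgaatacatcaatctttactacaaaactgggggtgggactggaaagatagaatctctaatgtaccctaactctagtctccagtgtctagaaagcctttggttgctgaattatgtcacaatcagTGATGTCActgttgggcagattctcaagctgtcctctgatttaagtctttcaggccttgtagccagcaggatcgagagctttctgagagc
Actl7b: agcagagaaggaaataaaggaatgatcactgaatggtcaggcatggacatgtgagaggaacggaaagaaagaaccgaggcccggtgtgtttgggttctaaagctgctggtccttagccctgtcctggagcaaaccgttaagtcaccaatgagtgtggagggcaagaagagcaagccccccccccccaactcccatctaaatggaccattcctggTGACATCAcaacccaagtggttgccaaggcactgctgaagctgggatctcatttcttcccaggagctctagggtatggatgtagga

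The cAMP response element TGACGTCA, which CREM, a transcription regulator of spermatid genes, is known to bind, was in 0 of the 7 members' windows, against 1.79% of 32851 RefSeq promoter windows of the same length. Its shorter form TGACG, which is also part of the full element, was in 1 of 7, Tssk6, against 20.8% of windows. With a free base in the middle of the element, TGACNTCA was in 4 of 7 windows, against 8.83%; this form was chosen after the windows had been read, and it includes the full element. All motifs were searched on both strands. Matches to the free-base form began at -48 and -35 from the start of Tssk1, at -58 for Tssk2, at -40 for Actl7a and at -36 for Actl7b. Tssk3, Tssk4 and Tssk6 had no match. A match describes the letters of the window and is no evidence of binding.

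Actl7b was the most abundant member in every input. In the Miwi ADH/- input it had 108 RPKM, followed by Tssk2 at 39.5, Actl7a at 30.3, Tssk1 at 24.5, Tssk3 at 13.0, Tssk4 at 11.7 and Tssk6 at 1.503 RPKM, where Tssk3 and Tssk4 alone could not be separated from each other by counting. In the Miwi -/- input, Actl7b at 57.7 RPKM was 13.8 times (10.1 to 19.3) as abundant as the next member, Tssk1, at 4.18 RPKM. Tssk4 at 2.00, Actl7a at 1.87, Tssk2 at 1.12 and Tssk3 at 0.550 RPKM came after it, with no neighbour among these 4 differing from the next beyond counting, and Tssk6 had no read. In the Miwi +/- input, Actl7b had 115 RPKM (109 to 122) from 1224 reads, above 95.1% of the kept genes, and Tssk2 followed at 26.1 RPKM (23.1 to 29.4). Actl7a at 19.5, Tssk1 at 18.5, Tssk4 at 16.0 and Tssk3 at 14.1 RPKM came next, and no neighbour in this order differed from the next beyond its counting interval. The levels are not equal across that order: the intervals of Actl7a (17.0 to 22.3) and Tssk3 (11.8 to 16.7) do not overlap. Here and in the Miwi -/- input, only neighbours in the order were compared by ratio. Tssk6 stood far below, at 0.701 RPKM from 7 reads. The median of the 7 members was 24.5 RPKM in the Miwi ADH/- input, 1.87 in the Miwi -/- input and 18.5 in the Miwi +/- input, against 6.90, 6.58 and 7.37 RPKM over the kept genes.

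**Figure D1:**
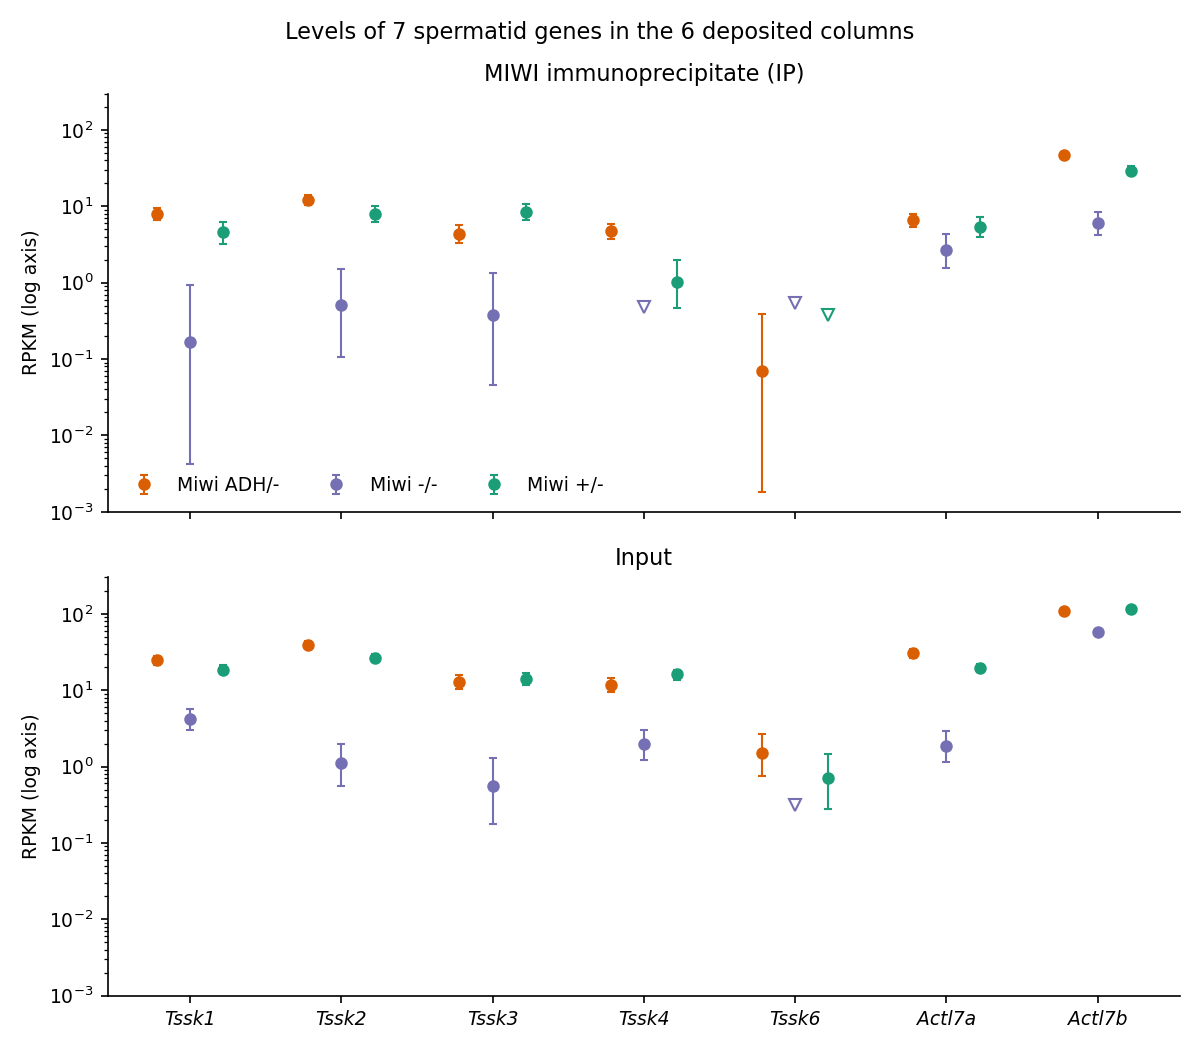
RPKM (log axis) of the 7 genes in the IP columns (top) and the input columns (bottom), by genotype; points are single columns, bars are exact 95% counting intervals, and open triangles stand at the value of 3 reads where a gene had none. In the inputs the Miwi -/- point of each gene lies below the other genotypes, and for Actl7b it is 57.7 RPKM, against 115 RPKM in Miwi +/-.

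Without MIWI, Tssk1, Tssk2, Tssk3, Tssk4 and Actl7a were lower in the input by at least 2-fold, Actl7b fell just short of that limit, and Tssk6 had too few reads to place. Of the 7 members, 5 were at least 2-fold lower in the Miwi -/- than in the Miwi +/- input and 0 were higher, against 10.6% and 4.47% of the kept genes. Tssk6, which is not among the kept genes, could not be called lower: its Miwi +/- level of 0.701 RPKM is too small for that on the scale of RPKM + 1. The median log2 difference was -2.51 over the members and -0.02 over the kept genes. In these bulk samples, fewer cells that hold a transcript and less of it per cell cannot be told apart.

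Tssk2, whose product pairs with TSSK1 and TSKS, had 1.12 RPKM (11 reads) in the Miwi -/- input, against 26.1 RPKM (271 reads) in the Miwi +/- input, 23.4-fold lower (12.8 to 47.3). Only 0.678% of the kept genes had a lower log2 difference. Tssk3, a small kinase of elongating spermatids, had 0.550 RPKM (5 reads) against 14.1 RPKM (135 reads), 25.6-fold lower (10.7 to 80.1). Among the members with reads in both columns these had the lowest ratios, and their intervals overlap widely.

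Actl7a had 1.87 RPKM (20 reads) in Miwi -/- and 19.5 RPKM (220 reads) in Miwi +/-, 10.4-fold lower (6.59 to 17.4). Tssk4, a kinase linked to the sperm flagellum in mice, had 2.00 RPKM (21 reads) and 16.0 RPKM (178 reads), 8.04-fold lower (5.10 to 13.3). Tssk1 kept more, with 4.18 RPKM (43 reads) in Miwi -/- and 18.5 RPKM (201 reads) in Miwi +/-, 4.43-fold lower (3.18 to 6.31). Summed over the 5 kinase genes, 80 reads in Miwi -/- stood against 792 in Miwi +/-, a 9.39-fold lower level given the column totals above (7.45 to 11.97). Tssk6, which acts in chromatin packing of the sperm nucleus, had 0 reads in Miwi -/- against 7 in Miwi +/-. With 3 reads taken as the floor of the column it was 2.21-fold lower, and its counting interval begins at 1.37-fold.

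Actl7b had 57.7 RPKM (582 reads) in the Miwi -/- input, against 115 RPKM (1224 reads) in the Miwi +/- input, 1.99-fold lower (1.81 to 2.20). Its log2 difference was -0.98, and it passed the limit, at -1.02, with columns scaled to equal totals. Whatever the scaling of the columns, genes can be set against each other within them. The Miwi -/- to Miwi +/- ratio of Actl7b was 5.23 times that of its neighbour Actl7a (3.26 to 8.82) and 2.22 times that of Tssk1 (1.57 to 3.21). Against Tssk2, Tssk3 and Tssk4 it was 11.7, 12.8 and 4.03 times as high. All 5 of these differences held with intervals adjusted over the 21 pairs of members, while that from Tssk6, with its 7 reads, was not detectable at this depth.

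The kinase genes of 1 chromosomal pair differed too. Tssk1 kept a 5.27 times higher share of its Miwi +/- level than Tssk2 did (2.59 to 11.6), which also held over the 21 pairs. The level of Tssk2 was 1.61 times that of Tssk1 in the Miwi ADH/- input (1.34 to 1.94), 0.267 times in the Miwi -/- input (0.124 to 0.527) and 1.41 times in the Miwi +/- input (1.17 to 1.70). The order of these neighbours was thus turned round in Miwi -/- alone among the inputs. In all, 7 of the 21 pairs differed in their Miwi -/- to Miwi +/- ratio with adjusted intervals: those of Actl7b with the 5 genes above, and those of Tssk1 with Tssk2 and Tssk3.

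**Figure D2:**
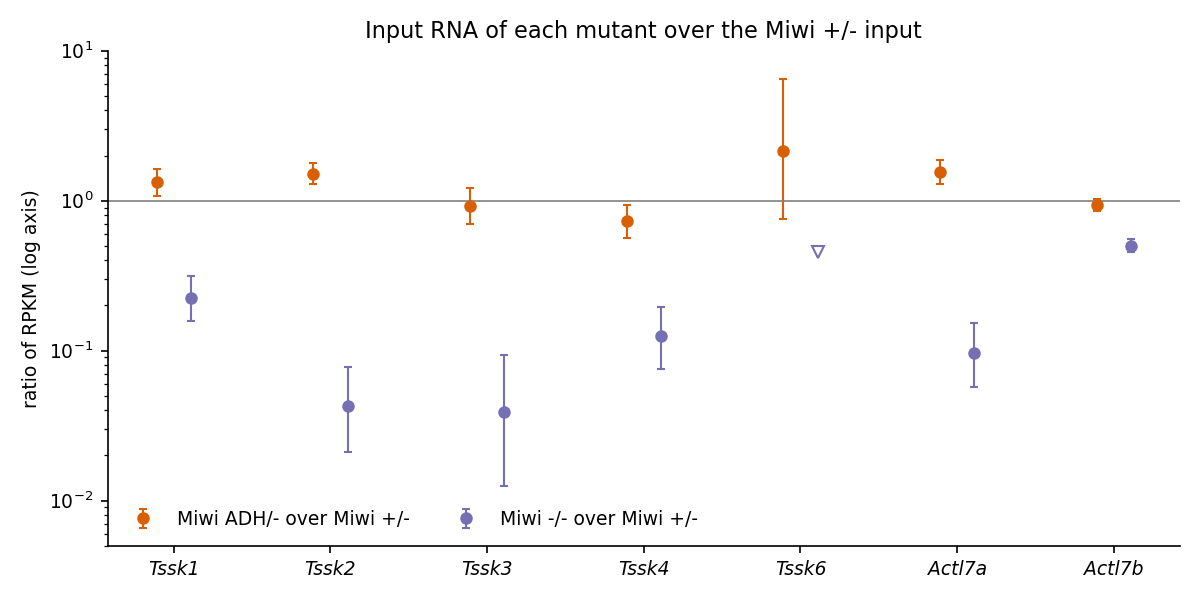
Ratio of RPKM (log axis) in the Miwi ADH/- and Miwi -/- inputs over the Miwi +/- input for each gene, with exact 95% counting intervals. The open triangle places Tssk6, with 0 reads in Miwi -/-, at the 3-read floor (2.21-fold lower, counting interval from 1.37-fold). The Miwi ADH/- ratios lie around 1, from 0.728 for Tssk4 to 2.14 for Tssk6, and the Miwi -/- ratios run from 0.0391 for Tssk3 to 0.502 for Actl7b.

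In the Miwi ADH/- input, with catalytically mutated MIWI, no member passed the 2-fold limit of RPKM + 1 against Miwi +/-. Between the Miwi ADH/- and Miwi +/- inputs, 0 of 7 members were at least 2-fold higher and 0 lower, against 7.8% and 7.42% of the kept genes. For 7 members, counts of 0 lie close to these shares and do not set the members apart from the kept genes. The median log2 difference was 0.39 over the members and -0.16 over the kept genes.

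Actl7a had 30.3 RPKM in the Miwi ADH/- input, against 19.5 RPKM in the Miwi +/- input, a ratio of 1.55 (1.29 to 1.87). Tssk2 had 39.5 against 26.1 RPKM, a ratio of 1.52 (1.28 to 1.79), and Tssk1 24.5 against 18.5 RPKM, a ratio of 1.32 (1.08 to 1.62). Tssk4 lay on the other side, at 11.7 against 16.0 RPKM, a ratio of 0.728 (0.562 to 0.940). Tssk3 (0.920, 0.697 to 1.21) and Actl7b (0.937, 0.857 to 1.02) had intervals that include 1, as did Tssk6 with 11 and 7 reads (2.14, 0.759 to 6.53). The differences between members are larger than counting error for 8 of 21 pairs with adjusted intervals: the Actl7a ratio was 1.66 times that of Actl7b (1.35 to 2.04), and the Tssk2 ratio 2.08 times that of Tssk4 (1.53 to 2.84).

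Set against each other, the mutant inputs repeat the gap to Miwi -/-, with the same Miwi -/- column as above. At least 2-fold higher in Miwi ADH/- than in Miwi -/- were 6 of 7 members, and 0 were lower, against 12.6% and 6.54% of the kept genes. The median log2 difference was 2.30, against -0.18 over the kept genes. The gap was widest for Tssk2, with 39.5 RPKM against 1.12 RPKM, 35.4-fold higher (19.5 to 71.7). For Tssk3 the ratio was 23.6 (9.73 to 74.3) and for Actl7a 16.2 (10.3 to 26.9). Tssk1 (5.87, 4.20 to 8.37) and Tssk4 (5.85, 3.62 to 9.89) lay lower. Tssk6, with 11 against 0 reads, was 4.74-fold higher at the 3-read floor, with a counting interval from 3.25-fold. Actl7b was the exception, at 108 against 57.7 RPKM, a ratio of 1.87 (1.68 to 2.08) and a log2 difference of 0.89, which became 1.07 after subtraction of the kept genes' median.

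**Figure D3:**
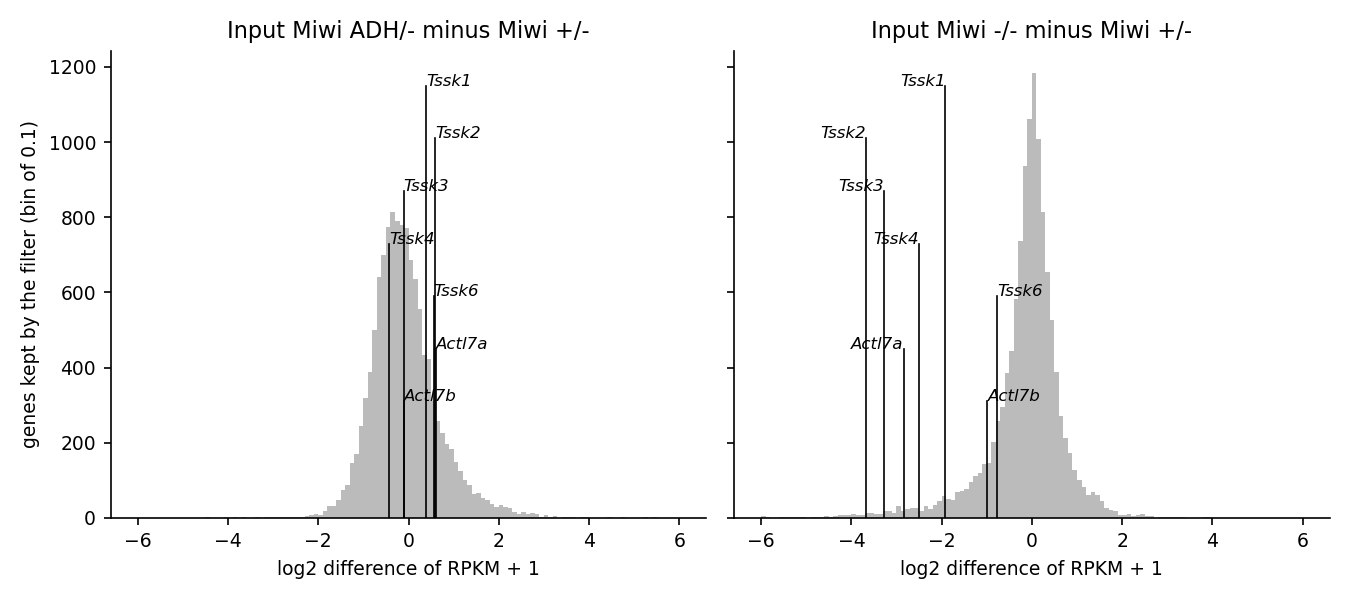
Number of kept genes (bins of 0.1) by log2 difference of RPKM + 1 for the Miwi ADH/- minus Miwi +/- inputs (left) and the Miwi -/- minus Miwi +/- inputs (right), values beyond 6 drawn at 6; black lines mark the 7 genes. On the left all lie between -0.43 and 0.61; on the right Tssk2, at -3.68, lies furthest out and Tssk6, at -0.77, nearest to 0.

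The IPs were read against their own inputs. In Miwi ADH/-, all 7 members were at least 2-fold lower in the IP than in the input, and 0 were higher, against 25% and 4.83% of the kept genes. The median log2 difference was -1.38, against -0.41 over the kept genes and -0.44 over the 4547 kept genes of 1000 to under 2000 bases, the length range of the members. Relative to the median of the kept genes, 3 members were at least 2-fold lower, with 13.4% of the kept genes lower and 12.02% higher. Actl7b had 47.2 RPKM in the IP and 108 RPKM in the input, a ratio of 0.438 (0.396 to 0.484). Tssk4 had 4.72 RPKM (74 reads) against 11.7 RPKM, a ratio of 0.404 (0.294 to 0.553), and Tssk3 4.36 against 13.0 RPKM, a ratio of 0.336 (0.238 to 0.472). Tssk1 at 7.89 RPKM (0.322, 0.254 to 0.406) and Tssk2 at 11.99 RPKM (0.303, 0.250 to 0.367) were close to each other, Actl7a at 6.60 RPKM had a ratio of 0.218 (0.172 to 0.275), and Tssk6 had 1 read in the IP against 11 in the input (0.0472, 0.00110 to 0.324). With adjusted intervals 3 of the 21 pairs differed: Actl7b with Tssk2 and with Actl7a, and Tssk4 with Actl7a.

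In the Miwi -/- control IP the kinase genes were close to the detection limit. The 7 members held 59 reads in all. Actl7b had 36 and lay above 75.2% of the kept genes in this column, and Actl7a had 17 and lay above 59.0%. Tssk2 had 3, Tssk3 had 2, Tssk1 had 1, and Tssk4 and Tssk6 had 0. The same 7 genes had 1245 reads in the Miwi ADH/- IP and 470 in the Miwi +/- IP, columns with larger totals, as given above. Set against the Miwi -/- input, 3 of 7 were at least 2-fold lower in this IP (Tssk1, Tssk4 and Actl7b) and 0 were higher, against 60.9% and 3.67% of the kept genes. Relative to the median of the kept genes, 1 was lower (Actl7b) and 3 were higher, with 25.0% and 23.6% of the kept genes. The 3 were Actl7a, Tssk3, from 2 IP and 5 input reads, and Tssk6. With 0 reads in both columns, Tssk6 passed the limit only through the subtraction of that median. The median log2 difference was -0.48, against -1.37 over the kept genes.

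Actl7b had 6.08 RPKM in the Miwi -/- IP and 57.7 RPKM in the input, a ratio of 0.105 (0.0730 to 0.147). Actl7a had 2.71 RPKM against 1.87 RPKM, a ratio of 1.45 (0.712 to 2.91) that was 13.7 times that of Actl7b (6.14 to 30.1). Tssk4, with 0 and 21 reads, was 4.11-fold lower in this IP at the 3-read floor, with a counting interval from 3.06-fold. Tssk1, with 1 and 43 reads, had a ratio of 0.0396 (0.000980 to 0.233). The level of Actl7b over that of Actl7a was 7.16 (5.82 to 8.87) in the Miwi ADH/- IP, 2.24 (1.23 to 4.26) in the Miwi -/- IP and 5.41 (3.96 to 7.53) in the Miwi +/- IP, against 3.56, 30.8 and 5.90 in the inputs in that order.

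In Miwi +/-, 5 of 7 members were at least 2-fold lower in the IP than in the input, and 0 were at least 2-fold higher, against 40.6% lower and 4.24% higher among the kept genes. Tssk6, at 0.701 RPKM in this input, could again not be called lower on the scale of RPKM + 1. The median log2 difference was -1.68 over the members, -0.77 over the kept genes and -0.82 over those of 1000 to under 2000 bases. Relative to the median of the kept genes, 3 members were at least 2-fold lower, with 15.5% of the kept genes lower and 15.4% higher. Tssk3, at -0.67 on the deposited scale, turned to 0.10 relative to that median, 0.15 with median-of-ratios factors and 0.17 with equal column totals, and Tssk6, at -0.77, turned to 0.003 relative to the median.

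Tssk4 had the lowest share in the Miwi +/- IP, at 1.03 RPKM (9 reads) against 16.0 RPKM in the input, a ratio of 0.0643 (0.0289 to 0.125). Tssk3 had the highest, at 8.49 RPKM (64 reads) against 14.1 RPKM, a ratio of 0.603 (0.441 to 0.818), which is 9.38 times that of Tssk4 (4.42 to 22.1). Between them lay Tssk1 at 4.57 RPKM in the IP (0.247, 0.171 to 0.349), Tssk2 at 7.96 RPKM (0.305, 0.229 to 0.401), Actl7a at 5.42 RPKM (0.278, 0.199 to 0.381) and Actl7b at 29.3 RPKM (0.255, 0.221 to 0.292). Of the 21 pairs, 9 differed with adjusted intervals, each with Tssk3 or Tssk4 as a partner. Tssk4 thus stood below the other measured kinase genes here and not in Miwi ADH/-. Tssk6 had 0 reads in this IP and 7 in the input, 1.83-fold lower at the 3-read floor, with a counting interval from 1.13-fold.

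**Figure D4:**
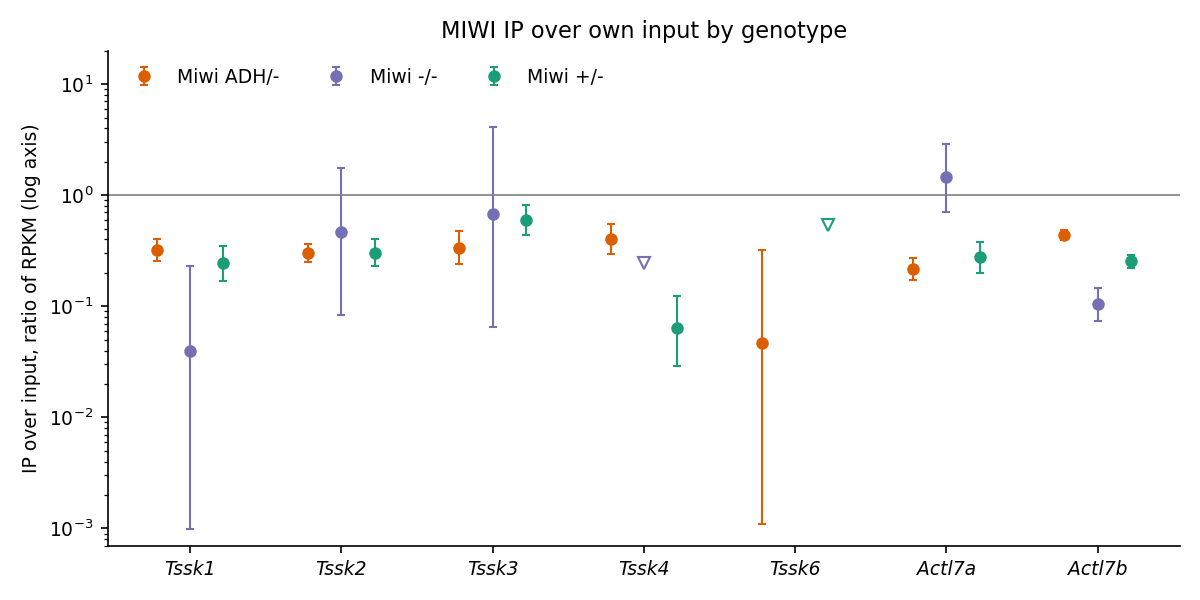
Ratio of RPKM in the IP over RPKM in the input of the same genotype (log axis), with exact 95% counting intervals; open triangles are bounds where the IP had 0 reads, and Tssk6 has no Miwi -/- value, with 0 reads in both columns. Most points lie below 1; Actl7a in Miwi -/- lies at 1.45 with an interval across 1, and Tssk4 lies at 0.404 in Miwi ADH/-, against 0.0643 in Miwi +/-.

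IP enrichment, the IP-minus-input difference of a genotype with MIWI minus that of the Miwi -/- control, was higher by at least 2-fold for Actl7b in both genotypes on the deposited scale with a pseudocount of 1, and for 0 members in each of the 3 other scalings of the columns. In Miwi ADH/-, 1 of 7 members was higher than the control and 4 were lower, against 51.9% and 7.3% of the kept genes. The lower ones were Tssk2, Tssk3, Tssk6 and Actl7a. The median was -1.16, against 1.06 over the kept genes. In Miwi +/-, 1 was higher and 3 were lower (Tssk2, Tssk4 and Actl7a), against 39.3% and 9.56%. The median was -0.77, against 0.67 over the kept genes. It is the value of Tssk6, which had 7 reads in the Miwi +/- input and 0 in the other columns compared. That median thus rests on those 7 reads and the pseudocount. Both comparisons use the same Miwi -/- columns, in which the 5 kinase genes had 6 IP and 80 input reads, so their values rest on those reads and on the pseudocount. Tssk4 shows this: its enrichment in Miwi +/- was -1.49 with a pseudocount of 1 and 0.56 with 0.1. With a pseudocount of 0.1, Tssk1 also passed the limit, at 2.39 in Miwi ADH/- and 2.02 in Miwi +/-, as did Tssk4 in Miwi ADH/-, at 3.10. In reads, which need no pseudocount, the IP-to-input ratio of Tssk1 over that of the control was 8.13 in Miwi ADH/- (1.34 to 331) and 6.24 in Miwi +/- (0.991 to 258), from 1 read in the Miwi -/- IP. For Tssk4, with 0 reads there, the interval began at 1.18 in Miwi ADH/- and at 0.161 in Miwi +/-. The ratio of Tssk2 was 0.653 in Miwi ADH/- (0.169 to 3.69) and 0.657 in Miwi +/- (0.167 to 3.77). For Tssk3 it was 0.494 in Miwi ADH/- (0.0775 to 5.33). Tssk6 had 0 reads in both Miwi -/- columns and no such ratio. Among the members called lower, Actl7a alone had intervals that exclude 1.

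Actl7b and Actl7a, which had more reads, differed in direction on the deposited scale. Actl7b had an IP-to-input ratio 4.16 times that of the control in Miwi ADH/- (2.92 to 6.08) and 2.42 times in Miwi +/- (1.67 to 3.58). Its log2 enrichment depended on the scaling: 1.88 in Miwi ADH/- became 0.82 relative to the kept genes' median, 0.49 with median-of-ratios factors and 0.99 with equal column totals, and 1.12 in Miwi +/- became 0.45, 0.17 and 0.51 in that order. Actl7a had a ratio 0.151 times that of the control in Miwi ADH/- (0.0718 to 0.320) and 0.192 times in Miwi +/- (0.0884 to 0.424), with more RPKM in both IPs (6.60 and 5.42) than in the Miwi -/- IP (2.71).

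Between the genotypes with MIWI, enrichment in Miwi ADH/- over Miwi +/- was at least 2-fold higher for 1 of 7 members and lower for 0, against 20.5% and 7.56% of the kept genes. The median was -0.05, against 0.38 over the kept genes. The gene was Tssk4, whose IP-to-input ratio was 6.28 times as high in Miwi ADH/- (2.94 to 14.8), a log2 difference of 1.92 that rests on 9 reads in the Miwi +/- IP. Actl7b followed with 1.72 times (1.45 to 2.05). Tssk3 ran the other way, at 0.558 times (0.349 to 0.889), with a log2 difference of -0.71 on the deposited scale and past 2-fold lower in the 3 other scalings (-1.09 relative to the median, -1.12 with median-of-ratios factors). For Tssk1 (1.30, 0.851 to 2.02), Tssk2 (0.994, 0.708 to 1.40) and Actl7a (0.785, 0.525 to 1.18) the intervals include 1.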

How the data were processed

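RNA of MIWI IPs and inputs was sequenced in 12 samples per the labels. The submitters' processing notes name TopHat, Bowtie and mm9; the sources used here do not give the counting tool, the annotation or whether a column pools the 2 samples of a group. The authors deposited RPKM in 6 columns; the unit stands in the header of the Miwi +/- columns and was assumed for the others, which step alike. Columns of no sample of the series numbered 0. The RefSeq gene table matched 0 of the 20345 identifiers, so the names of the 7 members come from the member list used here, the rule for naming genes of like pattern (which needed a symbol) named none, and none of the planned pathway and cell type lists gave values.

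Relative column totals came from the commonest ratio of values between columns, and reads from the largest step that divides all of a gene's values, with a tolerance of 0.002 reads and 1e-07 of the number itself (100% of the 17452 genes with 2 or more values). Absolute totals were set from the RefSeq lengths of 5 members. Differences are of log2(RPKM + 1), which understates changes of low genes; genes with 1 RPKM in 2 columns were kept. With 1 column per group the planned models across replicates could not be run. Intervals are Clopper-Pearson for ratios, exact Poisson for levels and exact conditional odds ratios between genes or genotypes, adjusted over 21 pairs by Bonferroni where stated. The recovery of reads and the calls between the Miwi -/- and Miwi +/- inputs were tested on simulated reads with Poisson counting error alone. Changes were set only in genes with more reads than Tssk6 had. The simulation does not cover calls at few reads, calls in the IPs or differences between replicates. Alternatives were a pseudocount of 0.1, no filter, 3 other scalings and each family alone. The members and lists were chosen with earlier results of these data known. Python 3.11.15, numpy 2.4.6, pandas 2.3.3, scipy 1.17.1 and matplotlib 3.10.9 were used.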

Additional observations from a re-analysis of the deposited data

Results flagged for a closer look

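Actl7a had IP-minus-input log2 differences on either side of 0 in the genotypes, on the deposited scale: 0.37 in Miwi -/-, against -2.04 in Miwi ADH/- and -1.68 in Miwi +/-. The Miwi -/- value lies 2.41 above that of Miwi ADH/- and 2.05 above that of Miwi +/-. Each value is from 1 column per group, and the difference was not tested across samples; the Miwi -/- value rests on 17 IP and 20 input reads, and its read ratio of 1.45 has an interval across 1 (0.712 to 2.91), so the opposite sign is not shown on that scale. In the other scalings the Miwi -/- value was past 2-fold higher, at 1.74 relative to the kept genes' median, 1.82 with median-of-ratios factors and 1.60 with equal column totals.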

How the results depend on the processing

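No paired analysis was possible because the columns carry no replicate number; for the same reason no replicate was left out. Of 153 summary values under the alternatives, 98 stayed within a set limit. For medians it was the longer arm of the counting interval of all members' summed reads, which is no interval of the median itself. For counts it was a change of at most 1.5 times. Of 315 single-gene values, 20 changed sign. They were 10 relative to the kept genes' median, 6 with median-of-ratios factors, 3 with equal totals and 1 with a pseudocount of 0.1. That last one, Tssk4 in IP enrichment of Miwi +/- over Miwi -/- (0.56), was alone among the 20 in having been past 2-fold before. The filter sets only which genes form the background, so leaving it out could not move a member value. Its 63 single-gene values, all unchanged for that reason, are among the 315, and its summary values are among the 153.

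Input, Miwi ADH/- against Miwi +/-: the median was 0.55 relative to the kept genes and 0.55 with median-of-ratios factors, 0.26 over the Actl7 genes alone, and with a pseudocount of 0.1 1 member (Tssk6) was higher. Input, Miwi -/- against Miwi +/-: -3.00 (pseudocount 0.1), -2.25 (median-of-ratios) and -1.91 (Actl7 genes). Input, Miwi ADH/- against Miwi -/-: 3.95 (pseudocount 0.1), 2.48 (relative to the kept genes) and 2.17 (Actl7 genes). Of these medians, -3.00 is the value of Tssk6, from 0 reads in Miwi -/- and 7 in Miwi +/-, so its size rests on the pseudocount. The median-of-ratios value of 0.55 is also that of Tssk6, from 11 reads in Miwi ADH/- and 7 in Miwi +/-.

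IP against input depended most on the scale. In Miwi +/- the median was -1.97 (pseudocount 0.1), -0.91 (relative), -0.85 (median-of-ratios) and -0.85 (equal totals), with 3, 2 and 2 members lower in the 3 rescaled settings. In Miwi ADH/- it was -1.62, -0.97, -0.97 and -0.94, with 3, 3 and 2 lower, and -1.61 over the Actl7 genes. In Miwi -/- it was -0.98, 0.89, 0 and 0, with 3, 1 and 1 higher and, relative to the kept genes, 1 lower, and -1.34 over the Actl7 genes. The 3 higher include Tssk6, which had 0 reads in both columns and whose value is the median where that is 0.

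IP enrichment of Miwi +/- over Miwi -/- had a median of -0.27 with 2 members higher (pseudocount 0.1) and of -1.44 with 5 lower (relative), and 0 were higher in each rescaled setting. That of Miwi ADH/- over Miwi -/- was -0.74 with 3 higher (pseudocount 0.1), -2.22 (relative) and -0.27 (Actl7 genes), and 0 were higher in each rescaled setting. That of Miwi ADH/- over Miwi +/- was -0.43 (relative), -0.45 (median-of-ratios), -0.30 (equal totals) and 0.20 (Actl7 genes), with 1 member, Tssk3, lower in each rescaled setting. The scalings change how columns stand to each other and not the ratios between genes within them. With a pseudocount of 0.1 (Tssk6, -3.00) or equal totals (Actl7b, -1.02), 6 members were lower in the Miwi -/- than in the Miwi +/- input. Among the kept genes, the higher share of 2-fold differences moved by over 10 percentage points with scale: relative to the median it was 70.0% against 51.2% on the deposited scale for the Miwi ADH/- against Miwi +/- inputs, 80.02% against 65.7% for the Miwi ADH/- against Miwi -/- inputs, 49.9% against 9.44%, 47.3% against 16.2% and 48.5% against 5.67% for IP against input in Miwi +/-, ADH/- and -/-, and for enrichment 48.1% against 87.7% (Miwi ADH/- over Miwi -/-), 51.5% against 80.4% (Miwi +/- over Miwi -/-) and 44.2% against 73.0% (Miwi ADH/- over Miwi +/-).

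Depth limits Tssk6, with 7 and 11 reads at most in the Miwi +/- and ADH/- inputs, and all kinase genes in the Miwi -/- IP.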
